A study of Homo sapiens with 2 samples.

Results

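The BH3-only genes encode the proteins that start the mitochondrial route of apoptosis. The 8 genes described here, PMAIP1, BBC3, BCL2L11, BID, BIK, BMF, BAD and HRK, were chosen by name as members of this family, from the 23033 genes with a value in the RNAseq table. All 8 had a value. RNAseq compared control with FZR1 ko cells. Cisplatin at 2 µg/ml was given to both, and both are labelled T-47D, a line from a luminal breast cancer. FZR1 (CDH1 protein) is an activator of the anaphase-promoting complex, a ubiquitin ligase. Control is labelled WT, and the FZR1 ko line was made with CRISPR/Cas9 and grown from a single cell, so it is 1 clone. There was 1 library per condition, and cells without cisplatin were not analysed here, so no difference below has a replicate check, an error or a p-value. In a bulk library, less mRNA in each cell and fewer cells that carry the mRNA cannot be told apart.

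BH3-only proteins share one short helix, the BH3 domain, with the rest of the BCL2 family. In a healthy cell the guardians (BCL2, BCL-xL, MCL1 and their relatives) hold the pore formers BAX and BAK in check. Under stress BH3-only proteins fill the BH3 groove of the guardians, and some of them, called activators, also bind BAX and BAK directly, after which the outer mitochondrial membrane is permeabilised and caspases are switched on. DNA damage by cisplatin is a classic trigger, and PMAIP1 and BBC3 are textbook targets of p53, whereas BID and BAD are mostly controlled after translation.

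Levels are given in FPKM, fragments scaled to the length of the transcript and to the depth of the library, so levels of different genes can be set side by side. Each difference is a log2 ratio of FZR1 ko to control after 1 FPKM was added to both values, which pulls low genes towards 0. The 13554 genes that reached 1 FPKM in either library were compared. A gene was called lower or higher at 2-fold on this scale. The library sums were 502589 and 500488 FPKM, and the median log2 ratio was -0.0048. FZR1 itself had 12.3 FPKM in control against 10.1 FPKM in FZR1 ko, which does not settle the genotype, as a small insertion or deletion can leave the mRNA in place. Of 9 markers of luminal cells, 5 were under 1 FPKM in both libraries, against their known expression in T-47D. They were ESR1, PGR, GATA3, KRT19 and CDH1, here the gene of E-cadherin (Entrez gene 999) and not FZR1. VIM, which T-47D is known to express little, had 315 FPKM in control against 295 FPKM in FZR1 ko. The markers thus go against the labelled line, and the identity of the cells is in doubt. The 9 markers summed to 1392 FPKM in control against 1756 FPKM in FZR1 ko, nearly all of it KRT8 and KRT18, and 4 mesenchymal markers summed to 327 and 320 FPKM, most of it VIM. Within these lists EPCAM (3.90 and 11.5 FPKM) and CDH2 (2.97 and 15.3 FPKM) differed by over 2-fold between the libraries. The part of these differences in the results below was not tested.

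PMAIP1 had the largest difference of the family. PMAIP1 (Entrez gene 5366) encodes NOXA, a small BH3-only protein that binds mainly MCL1 and promotes its degradation. It lies on the plus strand of chromosome 18, from 59899996 to 59904305 (GRCh38.p14). PMAIP1 had 127.55 FPKM in control against 26.38 FPKM in FZR1 ko, 4.84-fold lower, with a log2 ratio of -2.23. It was the 51st lowest log2 ratio of the 13554 genes, with 0.369% of them lower. In control it was by far the most abundant BH3-only mRNA, at 52.3% of the family's summed FPKM, and in FZR1 ko it held 21.9%.

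BCL2L11 (10018) and BBC3 (27113), which encode the activators BIM and PUMA, were both lower in FZR1 ko without reaching 2-fold. BIM and PUMA bind all of the main guardians. BIM is induced by FOXO factors when growth signals are lost and is removed after phosphorylation by ERK, and PUMA is among the strongest p53-induced killers. BCL2L11 lies on the plus strand of chromosome 2, from 111120914 to 111168445. It had 34.23 FPKM in control against 17.40 FPKM in FZR1 ko, 1.97-fold lower, with a log2 ratio of -0.94. BBC3, on the minus strand of chromosome 19 from 47220824 to 47232860, had 24.48 FPKM in control against 14.22 FPKM in FZR1 ko, 1.72-fold lower, with a log2 ratio of -0.74. Of all genes compared, 7.67% had a lower log2 ratio than BCL2L11 and 12.0% a lower one than BBC3, so neither stood as far out as PMAIP1.

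BMF (90427) was lower as well, from a level close to the limit of the comparison. It encodes a protein held on the actin cytoskeleton by a dynein light chain and freed when cells detach. BMF lies on the minus strand of chromosome 15, from 40087890 to 40108879. It had 2.14 FPKM in control against 0.94 FPKM in FZR1 ko. The log2 ratio was -0.69 with the pseudocount of 1 FPKM and -1.19 without one (2.28-fold lower), so BMF passed 2-fold only where less was added to each value. BMF entered the comparison through its value in control alone.

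BID (637) and BIK (638), both on chromosome 22, differed little. BID is cut by caspase-8 to the active tBID and so links the death receptors to mitochondria, and BIK acts from the endoplasmic reticulum. BID, on the minus strand from 17734138 to 17774665, had 22.96 FPKM in control against 21.72 FPKM in FZR1 ko, with a log2 ratio of -0.08. BIK, on the plus strand from 43110750 to 43129712, had 13.22 FPKM in control against 12.00 FPKM in FZR1 ko, with a log2 ratio of -0.13. These ratios lay in the middle of all genes, of which 45.2% were lower than BID and 41.7% lower than BIK.

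BAD (572) was the one BH3-only gene of at least 1 FPKM that was higher in FZR1 ko. BAD binds BCL2, BCL-xL and BCL-w, and it is kept inactive by phosphorylation and by 14-3-3 proteins. It lies on the minus strand of chromosome 11, from 64269828 to 64284704. BAD had 18.73 FPKM in control against 27.21 FPKM in FZR1 ko, 1.45-fold higher, with a log2 ratio of 0.52, under 2-fold. From end to end of the genes, introns included, BAD shares 14174 bases with GPR137 on the plus strand, which had 67.1 and 49.0 FPKM. The overlap of their exons was not computed. Whether the authors counted by strand is not given in the sources used here, so reads of BAD and GPR137 may be mixed where exons overlap. HRK (8739), a gene best known from dying neurons, on the minus strand of chromosome 12 from 116856144 to 116881441, had 0.52 FPKM in control against 0.63 FPKM in FZR1 ko. HRK was under 1 FPKM in both libraries and was left out of the counts.

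**Figure D1:**
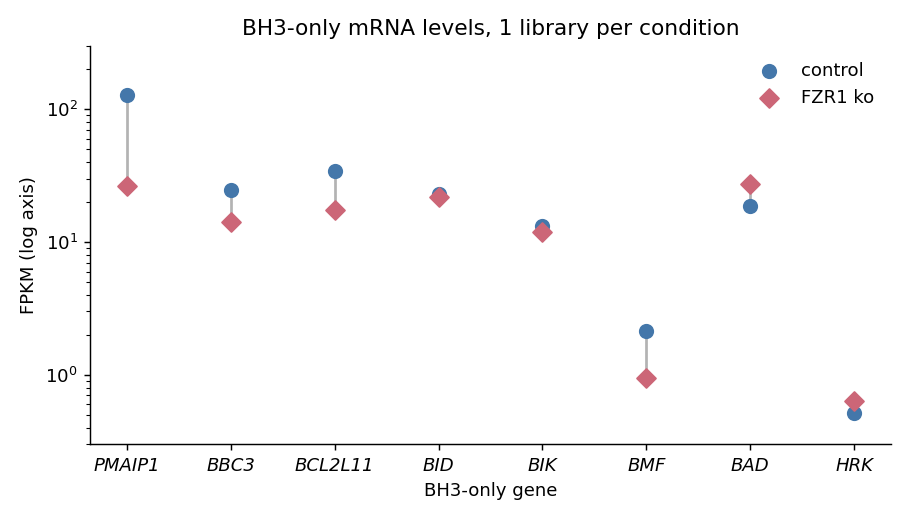
Level of each BH3-only gene in FPKM (log axis) in control (circles) and FZR1 ko (diamonds), 1 library each. PMAIP1 went from 127.55 to 26.38 FPKM, BCL2L11, BBC3 and BMF were lower by less in FPKM, BID and BIK nearly overlapped, and BAD and HRK were higher in FZR1 ko.

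The plot of levels by gene shows that the order of the family changed. In control the order was PMAIP1, BCL2L11, BBC3, BID, BAD, BIK, BMF and HRK. In FZR1 ko it was BAD, PMAIP1, BID, BCL2L11, BBC3, BIK, BMF and HRK. PMAIP1 stood 3.73-fold above BCL2L11, the next gene, in control, whereas BAD and PMAIP1 were at 27.21 and 26.38 FPKM in FZR1 ko. BAD moved from the fifth place to the first and the 3 lowest genes kept their places. Without replicates the spread that would separate neighbours in these orders is unknown.

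Of the 7 BH3-only genes kept, 6 were lower and 1 was higher in FZR1 ko, while 50.3% of all genes compared were lower. BMF, among the 6, was kept through its value in control alone. PMAIP1 alone (1 of 7, 14.3%) was lower by at least 2-fold, against 6.72% of all genes compared and 5.68% of the protein-coding ones. None was higher by at least 2-fold, against 6.78% of all genes and 6.39% of the protein-coding ones. With 7 genes a share of 14.3% is a single gene, so the count does not set the family apart. The median log2 ratio was -0.69 over the 7 genes and -0.41 with HRK included. It was -0.44 over the 6 genes that reached 1 FPKM in both libraries, which leaves out BMF.

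**Figure D2:**
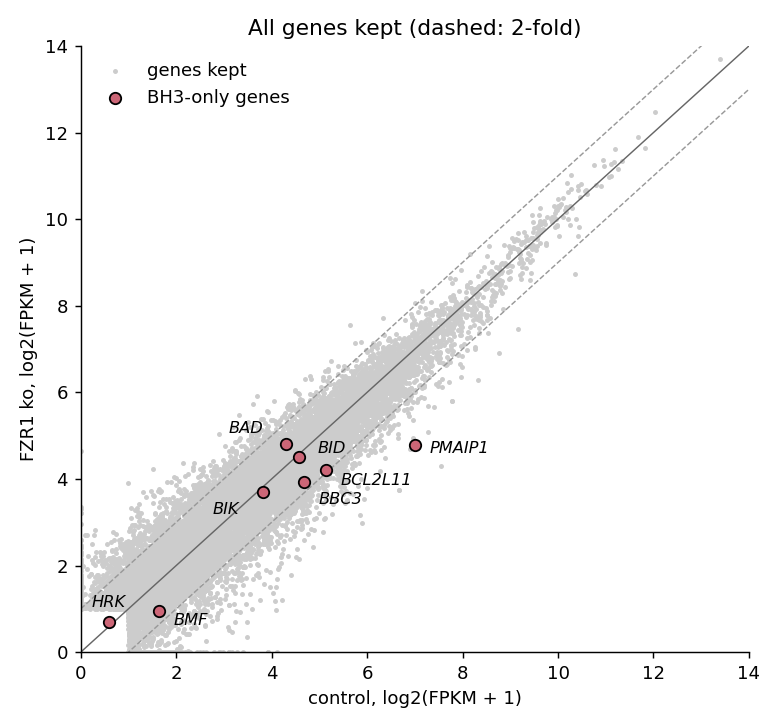
log2(FPKM + 1) in control (x axis) and FZR1 ko (y axis) of the 13554 genes compared (grey) and the 8 BH3-only genes (red), with dashed lines at 2-fold. PMAIP1 lies apart from the mass of genes of its level, and the other BH3-only genes lie within the dashed lines.

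The plot of ratios by pseudocount shows that PMAIP1, BBC3, BCL2L11, BID, BIK and BAD hardly depended on the pseudocount, while BMF and HRK, the lowest genes, did. FPKM holds no number of reads, but single-exon genes showed a lowest step in FPKM multiplied by transcript length in kilobases, at 0.0642 in control and 0.0621 in FZR1 ko, which was taken as 1 fragment. On this rough scale PMAIP1 in FZR1 ko rested on 342 to 807 fragments, for its shortest and its longest annotated transcript. BIK, with 1 annotated transcript of 951 bases, rested on 196 fragments in control and 184 in FZR1 ko. BMF in FZR1 ko rested on 7 to 71 fragments and HRK in control on 3 to 47, so these levels are the least precise of the family. In the plot of all genes PMAIP1 is the one member outside the 2-fold lines.

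The RefSeq windows of 250 bases before to 50 bases after a start site matched 7 of the 8 genes, with 13 windows in all; BIK had no entry. The 250 bases before the outermost start of PMAIP1 and BCL2L11, the most abundant BH3-only genes in control, both lower in FZR1 ko, and of BAD, the gene that was higher, are shown to set the motifs they hold side by side. They are chr18:59899746-59899995 (plus strand), chr2:111120664-111120913 (plus strand) and chr11:64284705-64284954 (minus strand) of GRCh38.p14, each written 5′ to 3′ along the gene. Capitals mark TGACG on either strand (CGTCA on the other), the core of the cAMP response element bound by ATF and JUN proteins, in PMAIP1 and BAD, and GTAAACA, the site of FOXO factors, in BCL2L11.
PMAIP1: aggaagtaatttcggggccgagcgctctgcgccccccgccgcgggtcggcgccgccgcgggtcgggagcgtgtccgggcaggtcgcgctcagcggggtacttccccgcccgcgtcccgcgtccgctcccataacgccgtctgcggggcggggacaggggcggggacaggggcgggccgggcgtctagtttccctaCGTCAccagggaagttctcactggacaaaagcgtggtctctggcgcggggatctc
BCL2L11: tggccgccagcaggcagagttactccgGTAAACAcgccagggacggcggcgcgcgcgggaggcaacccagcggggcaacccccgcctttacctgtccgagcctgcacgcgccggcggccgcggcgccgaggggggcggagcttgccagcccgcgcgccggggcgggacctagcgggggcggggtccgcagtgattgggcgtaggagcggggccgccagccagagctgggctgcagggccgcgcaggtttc
BAD: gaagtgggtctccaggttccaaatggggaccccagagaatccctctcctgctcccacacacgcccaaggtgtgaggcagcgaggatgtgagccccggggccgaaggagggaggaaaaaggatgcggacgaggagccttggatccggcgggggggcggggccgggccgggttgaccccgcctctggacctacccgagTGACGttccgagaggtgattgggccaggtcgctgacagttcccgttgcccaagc

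All 3 stretches were rich in G and C, at 72.8% in PMAIP1, 76.8% in BCL2L11 and 66.4% in BAD. Searched on both strands of the 300 bases, TGACG was in 5 of the 13 windows, those of PMAIP1, BMF, HRK and both of BAD, which overlap and hold the same single match, and in 24.6% of the 35116 windows of all genes. It starts 55 bases before the start site in PMAIP1 and, in the windows of BAD, 54 and 93 bases before theirs. The same letters thus stand in a gene that was lower and in one that was higher. GTAAACA was in BCL2L11 alone, and in 3.42% of all windows. The AP-1 site TGANTCA was in BBC3, and in 7.71% of all windows. TTTNGCGC, a site of E2F factors, was in none of the 13 windows and in 1.79% of all, and the p53 consensus decamer was in none of them and in 6.63% of all. No match of TGACG overlapped one of TGANTCA in these windows. A match is a description of the letters only, and sites outside the windows were not searched.

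The genes that control the BH3-only genes were followed in a list of 11 transcription factors, of which 9 were kept. Of these, 3 (33.3%, against 6.72% of all genes) were lower by at least 2-fold, 0 were higher by as much (6.78% of all genes), and the median log2 ratio was -0.11. The list was chosen with earlier results of these data known, so its share cannot be read as an enrichment. JUN, a subunit of AP-1 downstream of the stress kinase JNK, had 153 FPKM in control against 32.9 FPKM in FZR1 ko (log2 ratio -2.19). ATF3, a stress-induced factor of the ATF family, had 123 and 29.8 FPKM (-2.01). E2F1, which drives entry into S phase and can induce BH3-only genes, had 83.4 and 38.8 FPKM (-1.09). PMAIP1 had a log2 ratio of similar size (-2.23), and a link of JUN or ATF3 to PMAIP1 was not tested. ATF4, the main factor of the integrated stress response and the highest of the list, had 159 and 148 FPKM (-0.11), and its target DDIT3 had 19.3 and 12.9 FPKM (-0.55). FOXO1 (3.02 and 4.99 FPKM) and FOXO3 (3.86 and 6.14 FPKM) were higher in FZR1 ko by log2 ratios of 0.58 and 0.55, opposite in sign to BCL2L11, and MYC had 54.8 and 93.8 FPKM (0.76).

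The guardians, the proteins that BH3-only proteins bind, did not move together. Of 6 guardians 4 were kept, of which 2 were lower and 2 higher in FZR1 ko. MCL1, the partner of NOXA, had 135 FPKM in control against 88.8 FPKM in FZR1 ko (log2 ratio -0.60). BCL2L1, which encodes BCL-xL, had 40.7 and 96.8 FPKM (1.23) and was the one guardian past 2-fold, 1 of 4 kept, against 6.78% of all genes higher and 6.72% lower. BCL2L2, encoding BCL-w, had 7.40 and 8.33 FPKM (0.15), and BCL2 had 2.65 and 1.54 FPKM (-0.52). BCL2A1 (0.07 FPKM in control against listed at 0 in FZR1 ko) and BCL2L10 (0.10 and 0.04 FPKM) were hardly present. The pore formers BAX (98.8 and 81.2 FPKM, log2 ratio -0.28) and BAK1 (52.6 and 45.0 FPKM, -0.22) were slightly lower, and BOK (16.2 and 29.6 FPKM, 0.83) was higher, all under 2-fold.

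The plot of summed levels sets both sides of the family against each other. The BH3-only genes summed to 244 FPKM in control against 120.5 FPKM in FZR1 ko, and without PMAIP1 to 116 and 94.1 FPKM. The guardians summed to 186 and 196 FPKM. The ratio of the BH3-only sum to the guardian sum was 1.31 in control and 0.616 in FZR1 ko, 2.12-fold lower, and without PMAIP1 it was 0.624 and 0.481, 1.30-fold lower. For single pairs of binding partners, the ratio of PMAIP1 to MCL1 was 0.943 in control and 0.297 in FZR1 ko. The ratio of BCL2L11 to BCL2L1 was 0.841 and 0.180, and that of BBC3 to BCL2L1 was 0.602 and 0.147. Much of this comes from BCL2L1, the guardian that was higher by over 2-fold. BIM and PUMA bind MCL1 as well, which was lower in FZR1 ko, so their ratios to MCL1, not computed here, would fall by less. The ratio of BAD to BCL2L1 was 0.460 and 0.281, lower in FZR1 ko although BAD itself was higher. The ratio of MCL1 to BCL2L1 was 3.33 in control and 0.918 in FZR1 ko. These are ratios of mRNA levels, and protein was not part of the table.

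Genes that act on BH3-only proteins after translation were followed in a list of 16, of which 15 were kept. In FZR1 ko 7 were lower and 8 higher, with a median log2 ratio of 0.03. CASP8, which cuts BID, had 15.0 and 14.6 FPKM, and MTCH2, the mitochondrial receptor of tBID, had 78.5 and 121 FPKM (log2 ratio 0.62). DYNLL1, the dynein light chain that holds BIM, was the highest of the list, at 405 and 276 FPKM (-0.55), and DYNLL2, which holds BMF, had 54.1 and 45.0 FPKM (-0.26). The 7 genes of the 14-3-3 proteins, which hold phosphorylated BAD, went both ways, from SFN (371 and 164 FPKM, -1.17) to YWHAE (137 and 251 FPKM, 0.87). SFN is itself a target of p53. USP9X, a deubiquitinase that stabilises MCL1, had 5.03 and 12.7 FPKM (1.19). SFN and USP9X were the members past 2-fold, 1 of 15 (6.67%) in each direction, at the shares of all genes (6.72% lower and 6.78% higher).

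Other p53 targets with a role in cell death were set beside PMAIP1 and BBC3. Of 11 genes 10 were kept, and in FZR1 ko 8 of these were lower and 2 higher, with a median log2 ratio of -0.59. FAS, a death receptor, had 5.04 and 1 FPKM (log2 ratio -1.59), and AEN, a nuclease induced by p53, had 69.1 and 26.6 FPKM (-1.34). These were the members lower by at least 2-fold (2 of 10, 20.0%, against 6.72% of all genes). This list too was chosen with earlier results known, so the share is not a sign of enrichment. TNFRSF10B, the TRAIL receptor DR5, had 42.1 and 24.8 FPKM (-0.74), close to the log2 ratio of BBC3, and APAF1, the core of the apoptosome, had 5.03 and 5.22 FPKM (0.04). BAX, the most abundant of them in control, is described among the pore formers. With 1 FPKM added PMAIP1 differed more than any of the 10, whereas without it FAS in FZR1 ko was at 0.198 of its control level and PMAIP1 at 0.207.

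The lists hold 54 genes beside the BH3-only ones, and the plot of all lists shows the 47 of them that were kept. Among the 54 are 8 BH3-like genes, whose proteins carry a BH3 domain but lie outside the core family. Of the 47 kept, 6 were lower and 3 were higher by at least 2-fold, beside 6.72% and 6.78% of all genes compared. With 1 FPKM added, PMAIP1, JUN and ATF3 were the genes with log2 ratios under -2, a line that FAS also passes with nothing added.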

How the data were processed

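Total RNA was sequenced on the BGISEQ-500 platform, 1 library per condition. The authors used Bowtie2 (2.2.5 in the submitters' processing notes) and RSEM on transcripts of hg38, and deposited FPKM values per Entrez gene ID with 2 decimals. The annotation and fragment length are not given in the sources used here. Of 24663 rows, 1630 had no value and 22925 of the other 23033 IDs matched a symbol in RefSeq (GRCh38.p14), which also gave coordinates and promoter sequences. The table has 0 other value columns.

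Genes of at least 1 FPKM in 1 library were compared by the log2 ratio with a pseudocount of 1 FPKM and a 2-fold threshold, and no test was possible. The depth is not stated. The value of 1 fragment was estimated as the median FPKM times length between 0.04 and 0.1, among coding genes of 1 exon and under 2500 bases (24 genes in control and 35 in FZR1 ko), a rule set after the values were seen. Transcript lengths and strands came from GENCODE 44. The computation was tested on simulated data.

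The members and lists were chosen with earlier results of these data known, and the lists come from general knowledge. The text names all members, guardians and pore formers, and from other lists the genes past 2-fold and the highest. Other list genes named (DDIT3, FOXO1, FOXO3, MYC, CASP8, MTCH2, DYNLL2, YWHAE, TNFRSF10B, APAF1, BCL2L14 and FBXW7) were chosen after their values were seen. Alternatives were other pseudocounts, filters, scalings and thresholds, and each member left out. Python 3.11.15, numpy 2.4.6, pandas 2.3.3 and matplotlib 3.10.9 were used.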

Additional observations from a re-analysis of the deposited data

How the results depend on the processing

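No paired analysis was possible because there is only 1 library of each genotype. No test was made, and no library could be left out. Of 144 values under alternatives, 132 kept their sign and their side of 2-fold or, for counts, stayed within 1.5 times. Much of this was fixed in advance, since a change of filter leaves the ratio of each member as it was. Centring and rescaling moved the ratios little. The tally is therefore no measure of how far the results would repeat. With a pseudocount of 0.1 FPKM, 2 BH3-only genes were lower by at least 2-fold, since BMF reached -1.11, and 1358 genes overall were lower and 1460 higher. With 5 FPKM, 270 genes were lower and 183 higher, and at a 4-fold threshold 89 and 61. Without a pseudocount, an alternative added after the data were seen, 2 BH3-only genes were lower, with BMF at -1.19, and 1298 genes overall were lower and 1422 higher. These shifts follow from the construction of the settings. The protein-coding shares were also added after the data were seen. Without a filter the median of the transcription factors was 0.0134 in place of -0.11 and that of the protein partners -0.0058 in place of 0.03, as genes under 1 FPKM entered.

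PMAIP1 ranged from -2.27 to -2.08 and passed 4-fold under all settings, BCL2L11 from -0.98 to -0.81, BBC3 from -0.78 to -0.62, BAD from 0.44 to 0.54 and BMF from -1.19 to -0.27. The median of the BH3-only genes ranged from -0.78 to -0.27, with -0.27 at a pseudocount of 5 FPKM. It lay below the median of the other p53 death targets (-0.59) in the main comparison, but above it with 5 FPKM (-0.27 against -0.49), with no filter (-0.41 against -0.56) and with 1 FPKM required in both libraries (-0.44 against -0.59). It was -0.41 with any one of PMAIP1, BBC3 or BCL2L11 left out and -0.44 without BMF. The unknown depth limits BMF and HRK most.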

Other observations

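Proteins with a BH3 domain that lie outside the core family were followed as a list of 8 genes, of which 7 were kept. In FZR1 ko 6 were lower and 1 higher, with a median log2 ratio of -0.13. HUWE1, a ubiquitin ligase of MCL1 with a BH3 domain, had 13.8 FPKM in control against 33.4 FPKM in FZR1 ko (1.22) and was the one past 2-fold, a single gene of 7, against 6.78% of all genes. FBXW7, part of another ubiquitin ligase of MCL1 and from the list of protein partners, had 2.74 and 2.81 FPKM (0.03). BCL2L12, the highest of the BH3-domain list in control, had 41.2 and 31.0 FPKM (-0.40), and BCL2L14 was listed at 0 in both libraries.

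The genes around each BH3-only gene, within 2 Mb on either side, were described after the values were seen. Around PMAIP1 7 genes were kept, with a median log2 ratio of -0.09 and 0 past 2-fold in either direction, so the low ratio of PMAIP1 was not shared by its neighbours. Around BMF 49 genes were kept, with a median of -0.41, and 11 of them (22.4%, against 6.72% of all genes) were lower by at least 2-fold. The 441 genes kept on chromosome 15 had a median of -0.13. Among the 11 were DLL4, a Notch ligand (7.59 and 0.42 FPKM), CHAC1, a glutathione-degrading enzyme induced by ATF4 (12.1 and 4.13 FPKM), and THBS1, a secreted matrix protein (14.9 and 6.42 FPKM). Of the 11, DLL4 and PAK6 (1.68 and 0.27 FPKM) entered the comparison through their values in control alone, which favours a lower ratio. The neighbours of the other 6 BH3-only genes had medians from -0.07 to 0.28. The cause of the low ratios around BMF was not tested.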
